A study of Homo sapiens with 8 samples.

Results

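The genes examined here were 41 genes of macroautophagy, chosen by symbol from the 60230 genes of the count table, with earlier results of these data known. They cover the kinase complex that starts autophagy, the lipid kinase complex, the proteins that supply membrane, the conjugation enzymes, the ATG8 family, the cargo receptors, the factors that fuse autophagosomes with lysosomes, and a pair of transcription factors of autophagy and lysosomal genes. RNA was measured in HepG2 cells, a human liver cancer line, that overexpressed the drug-metabolizing enzyme CYP2C19 and were grown under blasticidin. There were 4 groups of 2 libraries each, all from this same cell line. The control group received DMSO, the solvent. The other groups received compound 4, compound 5 or compound 6, bisphenol antioxidants used in plastics, each at its own IC50. The paper took the IC50 values from a viability assay with a longer treatment than that used for RNA, and calls them rather comparable. Viability at the time of RNA extraction is not given. Compounds 4 and 6 share a methylene bridge between the rings and differ in that cyclohexyl groups stand in place of the tert-butyl groups, while compound 5 has an ethylidene bridge and tert-butyl groups at both ring positions. In the sample columns of the table, compound 4 is named metylcresol, compound 5 tetrabut and compound 6 cyclohexil. The labels mark the 2 libraries of each group as day 1 and day 2, called replicates 1 and 2 here, while the methods describe a single incubation time of a day for every group. No source says that the libraries came from separate cultures, so the p-values measure the spread between these libraries, which may be technical.

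Macroautophagy is the process by which a cell encloses part of its cytoplasm in a double membrane and delivers it to the lysosome for breakdown. The ULK1 complex receives the signal from nutrient-sensing kinases, the PIK3C3 complex makes the phosphatidylinositol 3-phosphate on which the membrane grows, and a chain of ubiquitin-like conjugation reactions attaches the ATG8 proteins (the LC3 and GABARAP families) to that membrane. Cargo receptors such as SQSTM1, also called p62, bind ubiquitin-tagged cargo on one side and ATG8 proteins on the other, and are themselves degraded with the cargo. In the liver this route supplies amino acids and lipids in fasting and clears protein aggregates and damaged organelles. Many of its genes are known targets of the transcription factors TFEB and TFE3, which bind an E-box within the CLEAR element, and SQSTM1 is also a known target of NRF2, which binds the antioxidant response element. The values below are RNA levels and do not measure autophagic flux or protein.

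Because such binding sites are the usual link between these genes and their regulators, the RefSeq promoter windows of the members (build GRCh38.p14) were searched for 5 short motifs on both strands, over the 250 bases before each transcription start. For 35 of the 41 members a window was found, 45 windows in all. ATG4D, EPG5, MAP1LC3A, RB1CC1, STX17 and UVRAG were not matched. The E-box core CACGTG was present in 3 windows of the members (6.67%), against 6.345% of 35116 windows of all genes. The antioxidant response element core TGACNNNGC was also present in 3 (6.67%), against 10.907% of all windows, and the AP-1 site TGACTCA in 1 (2.22%), against 4.203%. The longer motif TCACGTGA, which contains the E-box core and stood here for the CLEAR element, was found in no member window, against 0.854% of all windows. The ATF4 and C/EBP composite core TTGCATCA was found in no member window either, against 0.772%. No 2 matches overlapped. The 7 matched sites are printed here in 30 bases each, 5′ to 3′ on the strand of the gene, to show which letters of which members matched, with the motif in capitals.
ATG3 (chr3:112561963-112561992, minus strand): cctttctcacgtCACGTGccgggagagtct
TBK1 (chr12:64452077-64452106, plus strand): ccggccgtcggtCACGTGgcctccggccag
ATG14 (chr14:55411834-55411863, minus strand): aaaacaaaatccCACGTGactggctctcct
ATG101 (chr12:52069848-52069877, plus strand): tgtgcttctgTGACTACGCggatgttgtgg
MAP1LC3B (chr16:87392280-87392309, plus strand): gcgagtcaccTGACCAGGCtgcgggctgag
CALCOCO2 (chr17:48830896-48830925, plus strand): cgctcctgggGCCCGGTCAcctgaacacta
TFE3 (chrX:49043381-49043410, minus strand): tgggcgggggaTGACTCAcagcccatccca
The CALCOCO2 site is the antioxidant response core read on the opposite strand of the gene. SQSTM1, GABARAPL1, TAX1BP1, WIPI1, VMP1 and TFEB, which are described below as higher under more than 1 compound, held none of the 5 motifs in these windows. That says only that these letters were not in these windows, and the shares of the members lay close to or below those of all windows.

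The total count per library ranged from 9791659 to 17814595, and 13400 genes passed the filter on low counts and were tested. Levels are given as CPM, the counts of a gene divided by the library total and scaled to a common total, after TMM scaling, which adjusts for differences in library composition. All 9 hepatocyte markers of a fixed list, among them ALB, AFP and HNF4A, were detected in every library, with a summed level of 50660 to 54650 CPM under DMSO and 35000 to 44730 CPM in the treated libraries. Of the fibroblast list COL1A2, DCN and LUM were at 0 in all 8 libraries, and of the leukocyte list PTPRC, CD163, CD3E and MARCO. The sums of both lists came almost wholly from 1 gene each. PDGFRB lay at 5.02 to 9.12 CPM under DMSO and at 23.2 to 25.3 CPM under compound 4, and CD68 at 20.1 to 24.7 CPM and 38.6 to 39.3 CPM. The endothelial list summed to 0.740 to 2.08 CPM, with STAB2 at 0 in all libraries. The overexpressed CYP2C19 was at 16.4 and 27.7 CPM under DMSO, 31.4 and 44.3 CPM under compound 4, 52.8 and 38.0 CPM under compound 5, and 23.9 and 21.2 CPM under compound 6. The hepatocyte genes did not move alike. Under compounds 4, 5 and 6 AFP had log2-fold changes of -0.71, -0.48 and -0.55, and HNF4A of 0.09, -0.16 and 0.07. APOA1, AFP, APOB and TF were called lower with compound 4 (-0.90, -0.71, -0.61 and -0.52, edgeR adjusted p = 0.015, 0.016, 0.029 and 0.028). FGB was called higher under compound 5 (0.53, edgeR adjusted p = 0.030). With compounds 4 and 6 FGB moved the other way, at -0.38 and -0.47, without a call (edgeR adjusted p = 0.079 and 0.10). CYP2C19 had log2-fold changes of 0.79, 1.05 and 0.04 and was called under compound 5 (edgeR adjusted p = 0.040). The part of the lower hepatocyte sum and of these differences in the results below was not tested. In bulk RNA, fewer cells that express a gene and less RNA per cell cannot be told apart.

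Of the 41 members, 39 passed the filter and 2 did not. ULK2, the paralogue of the kinase ULK1, was listed at 0 in all 8 libraries, and a count of 0 allows up to 3 counts, which is 0.171 to 0.307 CPM in these libraries. Whether its transcripts were absent or were not assigned to it in the quantification was not settled, and the limit holds only in the first case. MAP1LC3A had 1 count in all, in replicate 2 of compound 5. Intervals and limits of this kind cover counting error only. No comparison can be made for these 2 genes, and the counts that follow are over the 39 tested members.

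Most of the autophagy genes had positive log2-fold changes against DMSO, 33 of 39 under compounds 4 and 5 and 32 under compound 6. Under compound 5, 16 of 39 members (41.0%) were called, that is, had an edgeR adjusted p under 0.05, and all of them were higher, against 8.3% of all tested genes in both directions and 5.35% of all genes in the higher direction. For compound 4, 7 members (17.9%) passed, 6 higher and PIK3R4 lower, against 9.51% of all genes, of which 5.6% were higher and 3.91% lower. With compound 6 only SQSTM1 passed (2.56% of the members), against 0.575% of all genes, or 0.493% in the higher direction. Over the 39 members the log2-fold changes had a median of 0.30 for compound 4, 0.45 for compound 5 and 0.19 for compound 6, and over all tested genes of 0.013, 0.0037 and 0.020. At an unadjusted p of 0.05, 18 members were higher and 1 lower under compound 4 (of all genes 27.5% passed, 15.1% in the higher direction), 23 and 2 under compound 5 (28.4% and 15.6%) and 14 and 1 under compound 6 (18.6% and 10.9%). Both treated libraries lay above both DMSO libraries for 26 members under compound 4 (30.4% of all genes did so), 28 under compound 5 (31.0%) and 24 under compound 6 (29.3%). Under all 3 compounds at once this held for 21 members (53.8%), against 14.4% of all genes. The 3 comparisons share the DMSO libraries and are not independent of each other. Because the members were chosen with earlier results of these data known, their shares beside those of all genes are a description and not a test. These calls depended on the control libraries: without replicate 2 of DMSO no member passed under any compound (edgeR), and without replicate 1 of DMSO 3, 1 and 0 members passed under compounds 4, 5 and 6. Without replicate 2 of compound 4 only 1 member passed for that compound, and without replicate 1 of compound 5 only 1 for that compound. For compound 5 the count was 9 without replicate 1 of compound 6. For compound 6 it was 0 without its replicate 2 and 4 without either replicate of compound 5. In a fit of only the 4 libraries of compound 5 and DMSO, 7 members passed, and ULK1, ATG101, RB1CC1, WIPI1, WIPI2, VMP1, ATG4D, CALCOCO2 and TFEB lost the call (edgeR adjusted p = 0.053 to 0.085). In none of these did a called member change its direction. The number of all genes called in each of these fits is not given here, so the counts do not show a change particular to the members.

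Within a compound the 2 libraries did not respond to the same degree. The median difference of the 39 members from the DMSO mean, on the log2(CPM + 0.5) scale, was 0.21 and 0.37 in replicates 1 and 2 of compound 4, 0.54 and 0.30 in those of compound 5, and 0.08 and 0.32 in those of compound 6. For the controls these medians were 0.041 and -0.041. Replicate 1 was thus the higher library under compound 5 and the lower under compounds 4 and 6. Over all tested genes the same medians lay between -0.0046 and 0.023.

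**Figure D1:**
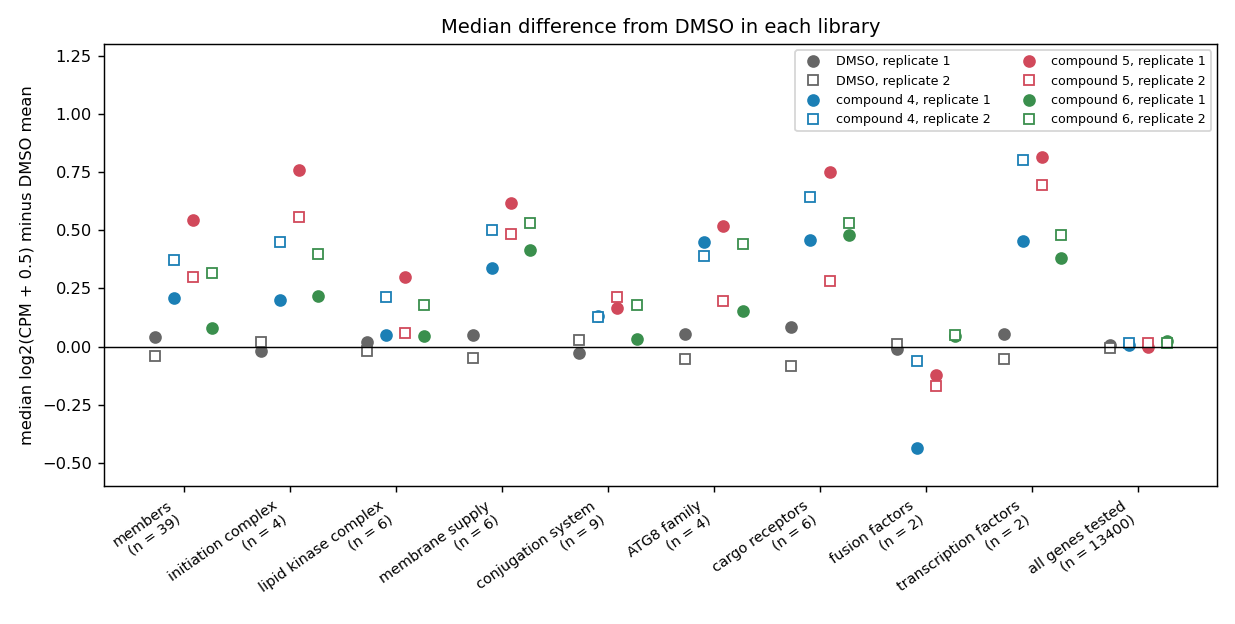
Median difference from the DMSO mean, in log2(CPM + 0.5), of all 39 tested members, of each role group and of all 13400 tested genes, with a point for each of the 8 libraries (filled circles, replicate 1; open squares, replicate 2). The member medians of the 6 treated libraries range from 0.08 to 0.54 and the medians of all genes stay near 0; the fusion factors are the group that lies below 0 under compounds 4 and 5.

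All 4 measured members of the initiation complex were called higher under compound 5, beside 5.35% of all tested genes called higher and 8.3% called in both directions. In a fit of only the 4 libraries compared, ATG13 alone kept its call. ULK1 is the kinase of the complex, ATG13 and ATG101 are the subunits that recruit it, and RB1CC1, also called FIP200, is its scaffold. ATG13 stood at 85.5 and 88.1 CPM under DMSO, at 142 and 128 CPM under compound 5, at 100 and 106 CPM under compound 4 and at 88.7 and 108 CPM under compound 6. Both libraries of compound 5 were above the other 6, and the log2-fold change for compound 5 was 0.64 ± 0.12 (SE, n = 2 per group, edgeR adjusted p = 0.017). For ATG101 the levels were 32.2 and 41.5 CPM under DMSO and 56.7 and 57.0 CPM under compound 5, a log2-fold change of 0.62 ± 0.14 (SE, edgeR adjusted p = 0.033). Under compound 4 ATG101 was at 41.8 and 47.8 CPM, above both DMSO libraries, with a log2-fold change of 0.28 (edgeR adjusted p = 0.25). Under compound 6 it was at 37.5 and 41.8 CPM, which overlapped the DMSO range, with a log2-fold change of 0.10. The level of ULK1 was 36.5 and 28.3 CPM under DMSO, 33.3 and 46.3 CPM under compound 4, 70.8 and 47.5 CPM under compound 5 and 42.5 and 52.6 CPM under compound 6. Its log2-fold change under compound 5 was 0.87 ± 0.23 (SE, edgeR adjusted p = 0.048), and with the day as a replicate block the adjusted p was 0.057, so that the call was lost. RB1CC1 was at 67.2 and 68.7 CPM under DMSO and 119 and 89.7 CPM under compound 5 (log2-fold change 0.62 ± 0.16 SE, edgeR adjusted p = 0.047), and its call was lost with the replicate block as well (adjusted p = 0.051). For compounds 4 and 6 none of the 4 was called, and their log2-fold changes ranged from 0.25 to 0.52 and from 0.10 to 0.56. At an unadjusted p of 0.05, 1 of the 4 passed under compound 4 and 2 under compound 6, beside 27.5% and 18.6% of all genes.

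The 6 genes that bring membrane and lipid to the growing autophagosome were higher in every treated library than in both DMSO libraries, under each compound. Of all tested genes, 14.4% were likewise higher in every treated library. Over the 6 genes the median log2-fold change was 0.43, 0.54 and 0.48 under compounds 4, 5 and 6. Of them 2, 5 and 0 were called, beside 9.51%, 8.3% and 0.575% of all tested genes. WIPI1, which binds phosphatidylinositol 3-phosphate at the site of formation, had the largest change of the group. It was at 41.1 and 25.5 CPM under DMSO, a wide spread for a control pair, and at 63.8 and 69.6 CPM under compound 4, 83.4 and 49.7 CPM under compound 5 and 53.7 and 57.9 CPM under compound 6. The WIPI1 log2-fold changes were 1.01 ± 0.26 (SE, edgeR adjusted p = 0.039), 1.00 ± 0.26 (edgeR adjusted p = 0.044) and 0.75 ± 0.26 (edgeR adjusted p = 0.17). Its paralogue WIPI2, which recruits the conjugation machinery, was at 63.6 and 61.7 CPM under DMSO and rose to 85.8 and 85.9 CPM under compound 5 (log2-fold change 0.45 ± 0.10 SE, edgeR adjusted p = 0.026). Under compounds 4 and 6 WIPI2 had log2-fold changes of 0.26 and 0.10.

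VMP1, a lipid scramblase of the endoplasmic reticulum, had its largest change under compound 6. Its levels were 174 and 160 CPM under DMSO, 243 and 253 CPM under compound 4, 256 and 218 CPM under compound 5 and 238 and 281 CPM under compound 6. The VMP1 log2-fold changes were 0.57 ± 0.12 (SE, edgeR adjusted p = 0.021), 0.50 ± 0.12 (edgeR adjusted p = 0.037) and 0.64 ± 0.12 (edgeR adjusted p = 0.054), so that the compound with the largest value missed the threshold. Before adjustment its edgeR p was the smallest under compound 6, at 0.00042 against 0.00091 and 0.0021 under compounds 4 and 5. Under compound 6, 0.575% of all genes were called. ATG2A, a lipid transfer protein, was at 32.7 and 25.0 CPM under DMSO and 59.1 and 47.0 CPM under compound 5, a log2-fold change of 0.88 ± 0.19 (SE, edgeR adjusted p = 0.023). Its paralogue ATG2B, at 21.9 and 20.7 CPM under DMSO, had log2-fold changes of 0.30, 0.35 and 0.38 and was not called. ATG9A, the scramblase of the seed vesicles, stood at 99.0 and 94.8 CPM under DMSO and at 149 and 139 CPM under compound 5, above all other libraries, with a log2-fold change of 0.57 ± 0.10 (SE, edgeR adjusted p = 0.013). Under compound 6 it was at 102 and 109 CPM, a log2-fold change of 0.12 that was not called. Exons of a gene without a symbol, with 567 counts over all libraries, overlap ATG9A on the same strand.

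**Figure D2:**
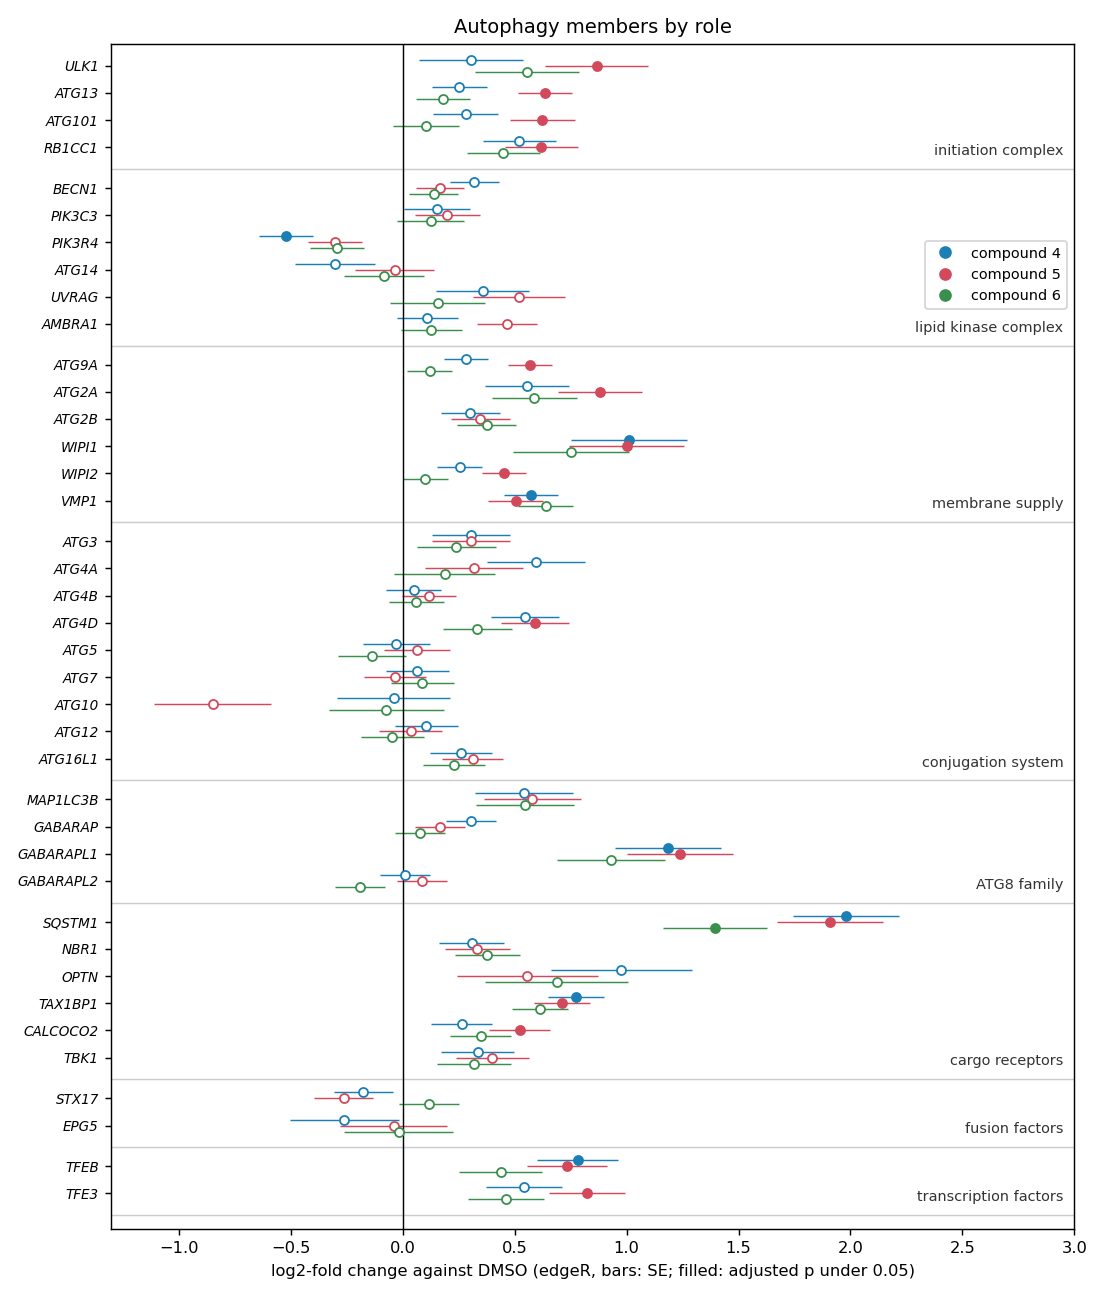
Log2-fold change against DMSO of each of the 39 tested members, grouped by role, for compounds 4, 5 and 6 (edgeR, bars are the SE, filled points have an adjusted p under 0.05). All 4 initiation genes and 5 of 6 membrane supply genes are filled for compound 5, SQSTM1 lies farthest to the right at 1.98, 1.91 and 1.40, and of the 15 lipid kinase and conjugation genes only PIK3R4 (compound 4) and ATG4D (compound 5) are filled. Of all tested genes, 9.51%, 8.3% and 0.575% were called for compounds 4, 5 and 6.

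The only called member of the lipid kinase complex was PIK3R4, which was lower under compound 4, where 3.91% of all tested genes were called lower. The median log2-fold changes of the 6 genes of the complex were 0.13, 0.18 and 0.13. PIK3R4, also called VPS15, is the regulatory subunit that anchors the kinase PIK3C3. It was at 34.3 and 38.0 CPM under DMSO, 24.6 and 25.9 CPM under compound 4, 28.4 and 30.3 CPM under compound 5 and 28.8 and 30.3 CPM under compound 6. All 6 treated libraries were below both DMSO libraries, and the log2-fold changes were -0.52 ± 0.12 (SE, edgeR adjusted p = 0.029), -0.30 (edgeR adjusted p = 0.14) and -0.29 (edgeR adjusted p = 0.24). The kinase itself, PIK3C3, was at 27.7 and 28.1 CPM under DMSO and 28.2 to 36.0 CPM in the treated libraries. BECN1, the scaffold of the complex, had log2-fold changes of 0.32, 0.17 and 0.14. ATG14 and UVRAG, the alternative subunits that direct the complex to early and late steps, had log2-fold changes of -0.30 and 0.36 under compound 4, -0.04 and 0.52 under compound 5, and -0.08 and 0.16 under compound 6, and neither was called. AMBRA1, which links the complex to ULK1, had a log2-fold change of 0.47 under compound 5 (edgeR adjusted p = 0.061).

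The conjugation system, with 9 genes the largest group, had a median log2-fold change of 0.11, 0.12 and 0.09 under compounds 4, 5 and 6. Of these genes 0, 1 and 0 were called, beside 9.51%, 8.3% and 0.575% of all tested genes. At an unadjusted p of 0.05, 2 of the 9 were higher under compound 4 and 0 under compound 6, beside 15.1% and 10.9% of all genes. ATG5, ATG7, ATG12 and ATG4B, the conjugate core, its activating enzyme and the main ATG8 protease, were between -0.14 and 0.12 under all compounds. ATG4D, another protease of the ATG8 proteins, was the called gene. It stood at 27.5 and 25.8 CPM under DMSO, 40.2 and 37.6 CPM under compound 4, 43.6 and 36.8 CPM under compound 5 and 29.4 and 37.6 CPM under compound 6. The ATG4D log2-fold change was 0.59 ± 0.15 (SE, edgeR adjusted p = 0.043) under compound 5 and 0.55 ± 0.15 (edgeR adjusted p = 0.052) under compound 4. ATG10, the E2-like enzyme that joins ATG12 to ATG5, had the lowest level of all tested members. Its levels were 5.53 and 4.52 CPM under DMSO, 5.54 and 4.26 CPM under compound 4, 2.96 and 2.62 CPM under compound 5 and 4.32 and 5.21 CPM under compound 6. Both compound 5 libraries were below the other 6, with a log2-fold change of -0.85 ± 0.26 (SE, edgeR adjusted p = 0.073) that did not pass the threshold. ATG4A, a further protease of the family, had the highest log2-fold change of the group under compound 4 at 0.60, with 0.32 and 0.19 under compounds 5 and 6, and was not called. ATG3, the E2-like enzyme of the ATG8 proteins, and ATG16L1, which places the reaction on the membrane, had log2-fold changes of 0.23 to 0.31 and were not called.

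The ATG8 family was uneven. GABARAPL1 was at 12.3 and 10.5 CPM under DMSO, 23.1 and 28.4 CPM under compound 4, 33.2 and 20.8 CPM under compound 5 and 19.2 and 24.1 CPM under compound 6. Every treated library was above both DMSO libraries, and the folds were 2.27, 2.36 and 1.91 in turn (log2-fold changes 1.18 ± 0.24, 1.24 ± 0.24 and 0.93 ± 0.24 SE, edgeR adjusted p = 0.018, 0.017 and 0.10). The close relatives GABARAP and GABARAPL2 were not called under any compound. GABARAP lay at 92.5 and 87.3 CPM under DMSO and at 94.1 to 121 CPM in the treated libraries, and GABARAPL2 at 43.7 and 41.3 CPM and at 36.7 to 45.9 CPM. MAP1LC3B, the LC3 protein most used as a marker of autophagosomes, was at 82.0 and 74.8 CPM under DMSO, 109 and 119 CPM under compound 4, 142 and 92.6 CPM under compound 5 and 92.5 and 136 CPM under compound 6. All 6 treated libraries were above both controls, but the libraries of compounds 5 and 6 differed widely and the log2-fold changes of 0.54, 0.58 and 0.55 (SE 0.22 each) were not called (edgeR adjusted p = 0.14, 0.12 and 0.22). Its near-identical copy MAP1LC3B2 was at 0.0837 to 1.23 CPM, and how reads were divided between them is uncertain.

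The cargo receptors held the largest change of all members. SQSTM1 (ENSG00000161011, chr5:179806398-179838078, plus strand, GENCODE 29 on GRCh38) was at 399 and 351 CPM under DMSO, 1325 and 1632 CPM under compound 4, 1656 and 1157 CPM under compound 5 and 757 and 1218 CPM under compound 6. Every treated library was above both controls, by folds of 3.95, 3.75 and 2.63 over the group. The log2-fold changes were 1.98 ± 0.24 (SE, edgeR adjusted p = 0.0035), 1.91 ± 0.24 (edgeR adjusted p = 0.0047) and 1.40 ± 0.23 (edgeR adjusted p = 0.048), and with the replicate block the last was 0.056. Without replicate 2 of DMSO the adjusted p for SQSTM1 was 0.055, 0.060 and 0.44. Exons of MGAT4B and MRNIP overlap SQSTM1 on the opposite strand, and several other members have overlaps of this kind. The library kit was directional, but whether the counting used the strand is not given in the sources used here. MGAT4B had log2-fold changes of 0.39, 0.13 and 0.32 and MRNIP of -0.51, -0.65 and -0.30.

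TAX1BP1 (ENSG00000106052, chr7:27739331-27844564, plus strand), a receptor for ubiquitin-tagged aggregates, was at 168 and 164 CPM under DMSO and at 242 to 304 CPM in the 6 treated libraries. All 6 were above both controls, and the log2-fold changes were 0.77 ± 0.12 (SE, edgeR adjusted p = 0.0084), 0.71 ± 0.12 (edgeR adjusted p = 0.013) and 0.61 ± 0.12 (edgeR adjusted p = 0.058). CALCOCO2, also called NDP52, a receptor for bacteria and damaged mitochondria, was at 53.8 and 48.6 CPM under DMSO and 80.9 and 66.3 CPM under compound 5 (log2-fold change 0.52 ± 0.14 SE, edgeR adjusted p = 0.046). Under compounds 4 and 6 it had log2-fold changes of 0.26 and 0.35. OPTN, a receptor in the clearance of mitochondria, was at 23.1 and 13.7 CPM under DMSO, 35.2 and 36.6 CPM under compound 4, 36.3 and 17.9 CPM under compound 5 and 30.8 and 27.9 CPM under compound 6. Its control libraries and its compound 5 libraries were far apart, and the log2-fold change of 0.98 ± 0.31 (SE) under compound 4 had an edgeR adjusted p of 0.080, and 0.035 with the replicate block. NBR1, a receptor related to SQSTM1, and TBK1, the kinase that phosphorylates several receptors, had log2-fold changes of 0.31 to 0.40 under every compound and were not called.

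**Figure D3:**
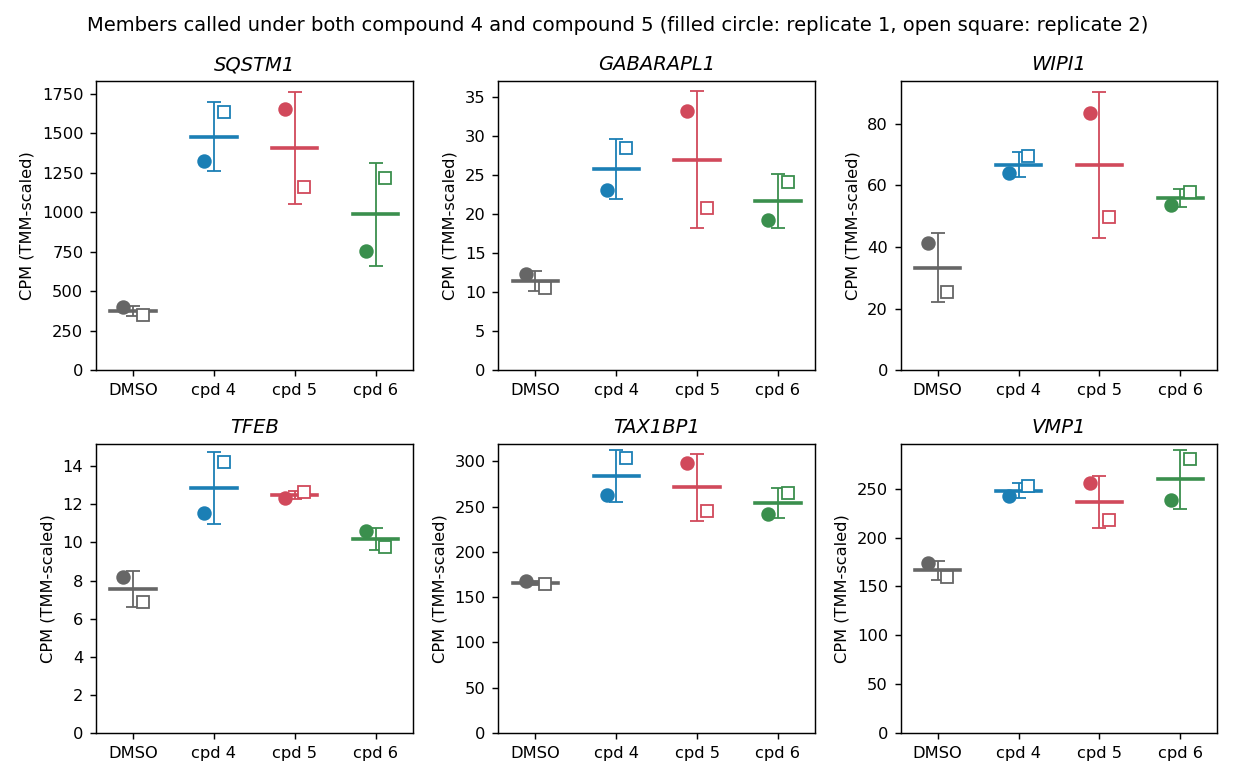
CPM in each library of SQSTM1, GABARAPL1, WIPI1, TFEB, TAX1BP1 and VMP1 under DMSO and compounds 4, 5 and 6 (filled circles, replicate 1; open squares, replicate 2; horizontal line, mean; error bar, SD, n = 2). In each panel the 6 treated points lie above both DMSO points, and for SQSTM1, GABARAPL1 and WIPI1 the 2 libraries of compound 5 lie far apart.

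STX17, the SNARE of the closed autophagosome, was at 23.0 and 21.4 CPM under DMSO and had log2-fold changes of -0.18, -0.26 and 0.12. EPG5, a tethering factor, was at 17.2 and 18.9 CPM under DMSO and at 10.4 and 19.5 CPM under compound 4, where the 2 libraries differed more than the groups. Neither fusion factor was called, and at an unadjusted p of 0.05 neither passed under any compound.

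Both transcription factors were higher in all treated libraries than under DMSO, beside 14.4% of all tested genes. TFEB was at 8.20 and 6.87 CPM under DMSO, 11.5 and 14.2 CPM under compound 4, 12.3 and 12.6 CPM under compound 5 and 10.6 and 9.76 CPM under compound 6. The TFEB log2-fold changes were 0.78 ± 0.18 (SE, edgeR adjusted p = 0.028), 0.73 ± 0.18 (edgeR adjusted p = 0.038) and 0.44 ± 0.19 (edgeR adjusted p = 0.25). Its call under compound 5 was lost with DESeq2 (adjusted p = 0.066) and with only the 4 libraries compared (edgeR adjusted p = 0.063). TFE3 was at 36.8 and 37.3 CPM under DMSO, 46.2 and 61.4 CPM under compound 4, 71.9 and 59.5 CPM under compound 5 and 45.4 and 56.6 CPM under compound 6. Its log2-fold changes were 0.54 ± 0.17 (SE, edgeR adjusted p = 0.076), 0.82 ± 0.17 (edgeR adjusted p = 0.022) and 0.46 ± 0.17 (edgeR adjusted p = 0.19). These factors are controlled mainly by phosphorylation and entry into the nucleus, which RNA levels do not show.

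Per kilobase of exon, the members spanned a wide range of levels. Under DMSO the median of the 39 was 6.14 CPM per kb. SQSTM1 was the highest at 49.0 CPM per kb, followed by GABARAP at 39.7 and VMP1 at 24.1 CPM per kb. The lowest were ATG10 at 0.923, EPG5 at 1.32 and TFEB at 1.33 CPM per kb, of which EPG5 and TFEB did not differ beyond the spread of their DMSO libraries (1.25 to 1.38 and 1.22 to 1.45). SQSTM1 and GABARAP were separated from the next gene by more than their library ranges of 45.9 to 52.1 and 38.5 to 40.8 CPM per kb. With the compounds SQSTM1 reached 193, 184 and 129 CPM per kb, so that it stood further above the rest. GABARAPL1, at 2.79 CPM per kb under DMSO, was the lowest of the 4 tested ATG8 members, below MAP1LC3B at 14.8 and GABARAPL2 at 14.0 CPM per kb. The exon length is that of all annotated exons joined, not of the transcripts expressed in these cells, so that levels of different genes are approximate.

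**Figure D4:**
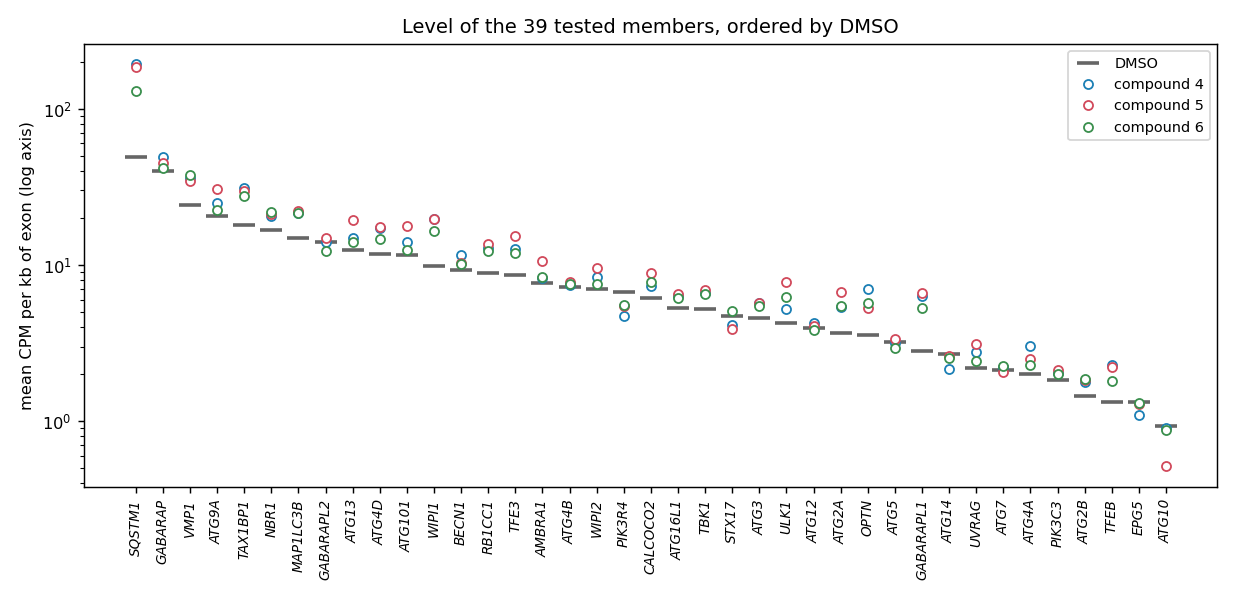
Mean CPM per kb of exon of the 39 tested members on a log axis, ordered by the DMSO level (grey bars), with the means of compounds 4, 5 and 6 as circles (n = 2 libraries each). SQSTM1 is highest in every group (49.0 CPM per kb under DMSO and 129 to 193 with the compounds), and ATG10 at the right falls below its DMSO bar for compound 5.

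Other genes of the pathway, 80 in 5 lists, had smaller medians. Of the 74 that were tested, 8 (10.8%) were called under compound 4, 9 (12.2%) under compound 5 and 1 (1.35%) under compound 6, and their median log2-fold changes were 0.16, 0.09 and 0.11. Of all tested genes, 9.51%, 8.3% and 0.575% were called under compounds 4, 5 and 6. In the higher direction 6, 8 and 1 of the 74 were called, beside 5.6%, 5.35% and 0.493% of all genes, and 2, 1 and 0 were lower. The only call under compound 6 was CCPG1. Among other core genes (13 tested), WDR45, a relative of the WIPI proteins, was at 16.7 CPM in each DMSO library, 26.2 and 35.8 CPM under compound 4, 38.6 and 34.0 CPM under compound 5 and 26.1 and 30.8 CPM under compound 6. Its log2-fold changes were 0.90 ± 0.17 (SE, edgeR adjusted p = 0.016), 1.12 ± 0.17 (edgeR adjusted p = 0.0090) and 0.77 (edgeR adjusted p = 0.073), and WAC also rose under compound 5 (0.56).

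Among 15 organelle receptors, CCPG1, a receptor for the endoplasmic reticulum, was at 40.2 and 38.2 CPM under DMSO, 63.7 and 79.1 CPM under compound 4, 98.0 and 69.3 CPM under compound 5 and 74.4 and 104 CPM under compound 6. The CCPG1 log2-fold changes were 0.87 ± 0.21 (SE, edgeR adjusted p = 0.030), 1.09 ± 0.20 (edgeR adjusted p = 0.016) and 1.19 ± 0.21 (edgeR adjusted p = 0.048). The mitochondrial kinase PINK1 (0.89) and the glycogen receptor STBD1 (0.76) rose under compound 4, and SEC62 (0.51) under compound 5, on the log2 scale. Among 13 genes of lysosomal fusion, the adaptor PLEKHM1 rose by 0.97 and 1.05 under compounds 4 and 5 and the SNARE YKT6 by 0.52 under compound 5. Of 26 genes of nutrient kinase control, the mTOR inhibitor DEPTOR fell by 1.11 and SESN1 by 0.65 under compound 4, where FNIP2 rose by 0.52. Under compound 5 SESN1 fell by 0.70 while its relative SESN2, a known target of the amino acid stress response, rose by 1.00 and FLCN by 0.64. No gene of the 7 tested MiT/TFE and FOXO regulators was called by edgeR under any compound, and at an unadjusted p of 0.05, 1, 0 and 1 were higher under compounds 4, 5 and 6.

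Between the compounds no member was called. Each pair was compared in the same fit, with each compound at its own IC50. For compound 4 against 5, 0 of 39 members had an edgeR adjusted p under 0.05 (0.313% of all genes were called). The same 0 of 39 held for compound 6 against 5 (1.03%) and for compound 4 against 6 (0.0%). At an unadjusted p of 0.05 6, 9 and 1 of the 39 members passed, beside 16.2%, 18.5% and 7.05% of all genes, and DESeq2 called 0, 1 and 0, the 1 being ATG9A (DESeq2 adjusted p = 0.026). For compound 6 against compound 5, ATG9A had a log2-fold difference of -0.45 (95% interval -0.67 to -0.22, edgeR adjusted p = 0.066), ATG13 of -0.46 (-0.73 to -0.19, edgeR adjusted p = 0.096) and ATG101 of -0.52 (-0.84 to -0.20, edgeR adjusted p = 0.11). For compound 4 against compound 5 the same 3 genes were at -0.29, -0.38 and -0.34, and ULK1 at -0.56 (-1.07 to -0.06, edgeR adjusted p = 0.27). ATG10 was the highest in both, at 0.81 (0.23 to 1.39, edgeR adjusted p = 0.19) and 0.78 (0.19 to 1.37, edgeR adjusted p = 0.17).

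Compounds 4 and 6 differ by tert-butyl against cyclohexyl groups. In that comparison SQSTM1 was the single member whose interval left out 0, at 0.58 (0.07 to 1.09, edgeR adjusted p = 0.62), higher under compound 4. For GABARAPL1 the difference was 0.25 (-0.25 to 0.76), for TAX1BP1 0.16 (-0.12 to 0.44) and for VMP1 -0.07 (-0.34 to 0.20). The median half-width of the 95% intervals was 0.32, 0.33 and 0.33 in the 3 comparisons, and the intervals of 36, 37 and 38 of the 39 members lay within a log2 difference of 1 in either direction.

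**Figure D5:**
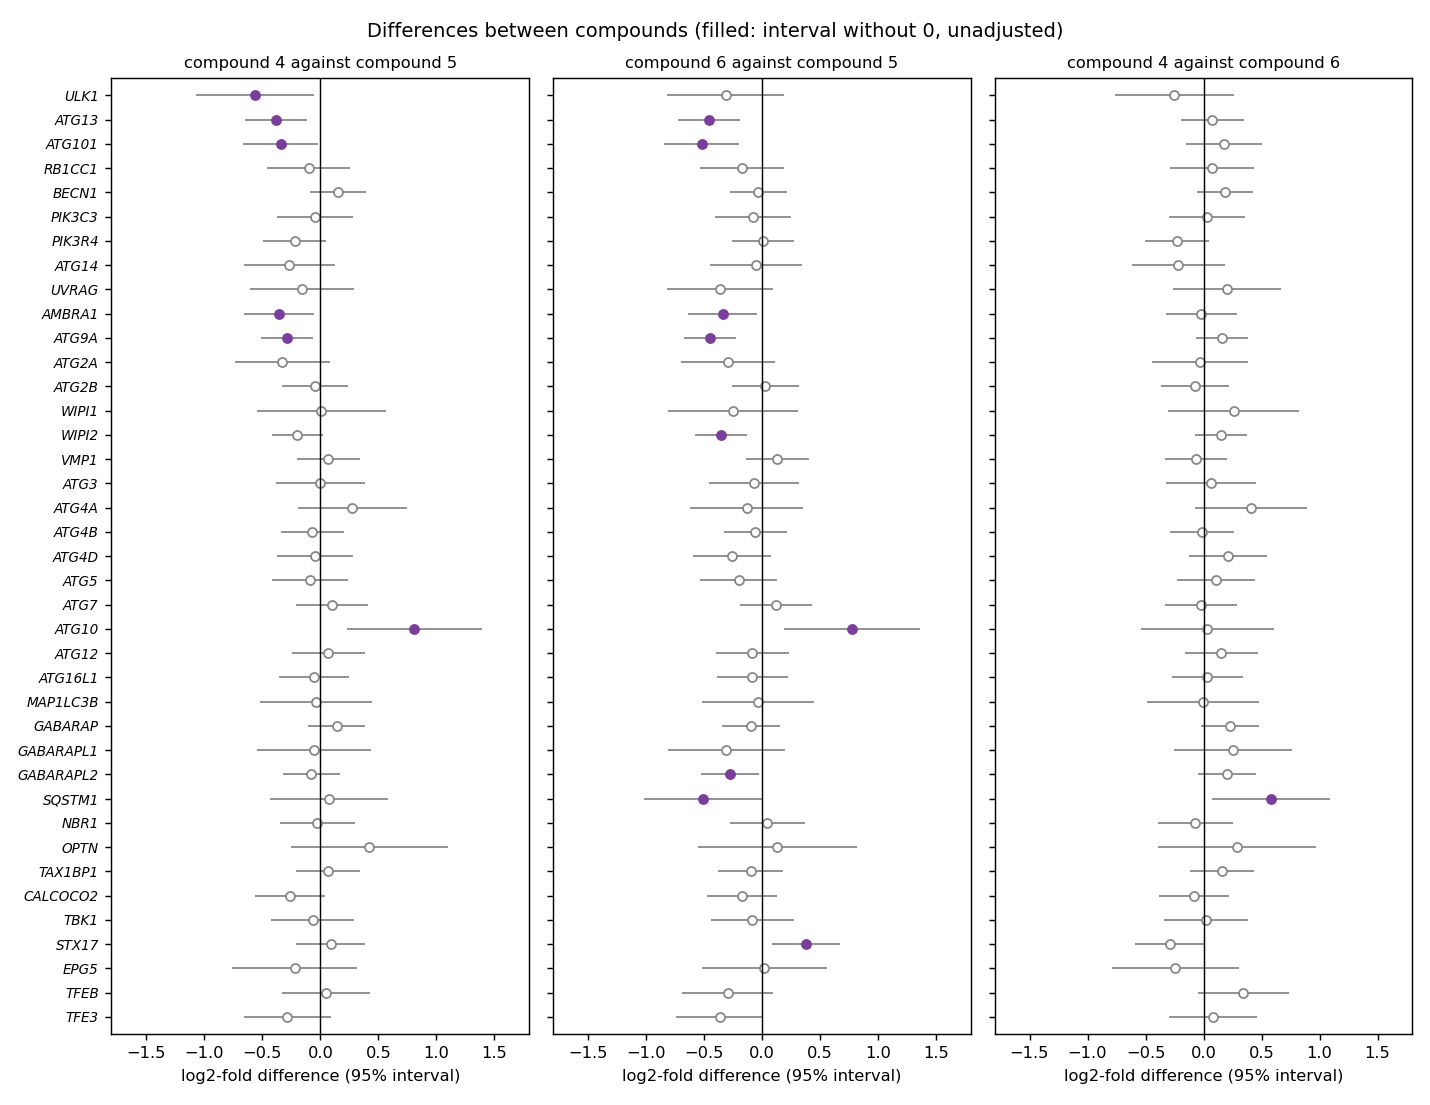
Log2-fold difference with its 95% interval for each of the 39 tested members, for compound 4 against 5, compound 6 against 5 and compound 4 against 6 (filled points have an interval that leaves out 0, without adjustment). The 6, 9 and 1 filled points include ATG13, ATG101 and ATG9A below 0 and ATG10 above 0 in the first and second panel and SQSTM1 in the third; none passed the adjusted threshold.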

How the data were processed

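The authors checked reads with FastQC 0.12.0, estimated transcript abundance with Salmon 1.5.0 against GENCODE on GRCh38, summed it to genes with tximeta, and deposited estimated counts per gene, without normalization, as whole numbers (60230 genes, 8 libraries). The runs of replicate 1 of DMSO and of compound 4 had been merged, as their labels say. Depth was 9791659 to 17814595 counts per library. Here, edgeR 4.0.16 in R 4.3.3 was used with TMM factors, filterByExpr at a minimum count of 10 (13400 genes), and its quasi-likelihood test, fitted once to all 8 libraries with group as the only term, with Benjamini-Hochberg adjustment over all tested genes and a threshold of 0.05. With 2 libraries against 2, no permutation test can reach 0.05. The code was checked on simulated counts, with independent libraries and a known set of changed genes for compound 4 only. Those counts held no day effect, so the check does not vouch for the calls in these data. No replicate pair agreed within sampling noise: the mean chi-square per gene was 8.42 to 19.7.

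Each group has a day 1 and a day 2 library in the labels, and the day was used as a replicate block in an alternative fit. The labels do not say that the libraries of a day were handled together. Over the 13400 genes, the difference between replicates 2 and 1 correlated between groups at -0.16 to 0.30. The alternatives were that block, DESeq2 1.42.0, its size factors in edgeR, other filters, only the 4 libraries compared, and each library left out.

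Members, roles, pathway lists and motifs were chosen with earlier results of these data known. Members past the threshold were named with all values, as were the ends of each role group, and of the other lists at most 3 genes per direction. Levels per kb used joined GENCODE 29 exons. Figures were drawn with matplotlib 3.10.9.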

Additional observations from a re-analysis of the deposited data

How the results depend on the processing

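The median log2-fold change of the members against DMSO kept its sign under every alternative and moved by less than 1 SD of the medians of the 2 treated libraries. That SD comes from 2 values and grows with the gap between them, so it is a loose bound and not a test of stability. Leaving out each library in turn, it ranged from 0.21 to 0.35 for compound 4, 0.29 to 0.55 for compound 5 and 0.08 to 0.31 for compound 6, and the count of called members from 0 to 10, 0 to 18 and 0 to 4. The medians between compounds ranged from -0.17 to 0.038 (4 against 5), -0.27 to -0.026 (6 against 5) and -0.056 to 0.19 (4 against 6), so the first and the last had no stable sign, and the count between compounds was 0 each time. Where a group was left with 1 library, that library was assumed to vary like the other groups.

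The number of members called moved by over 1.5 times under other settings, and the cause was not tested. The counts that follow are given without the number of all genes called in the same fit. They therefore do not show a change particular to the members. Compound 4 had 11 with DESeq2, 13 without a filter and 11 with only its own and the DMSO libraries, in place of 7. Compound 5 had 7 with only its own and the DMSO libraries, in place of 16. Compound 6 had 4 with DESeq2, 10 without a filter, 3 with at least 10 counts in every library and 6 with only its own and the DMSO libraries, in place of 1. Between compounds, without a filter 1 member was called for 4 against 5, 4 for 6 against 5 and 1 for 4 against 6, and DESeq2 called 1 for 6 against 5, in place of 0. With the day as a replicate block, the counts were 8, 14 and 0 for compounds 4, 5 and 6: OPTN was gained under compound 4, ULK1 and RB1CC1 were lost under compound 5 and SQSTM1 under compound 6, and the block changed no other call of a member.

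With DESeq2's size factors in edgeR, ULK1 lost its call under compound 5 (adjusted p = 0.0503). Of the called members, apart from leaving out libraries, 42 of 42 recomputed values for compound 4, 83 of 96 for compound 5 and 5 of 6 for compound 6 stayed past the threshold. When a library was left out, 33 of 56, 64 of 128 and 5 of 8 did, and 0 reversed.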
